A study of Mus musculus with 2 samples.

Results

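The 10 genes described here encode the 4 kinases that phosphorylate the translation factor eIF2alpha (Eif2ak1, Eif2ak2, Eif2ak3 and Eif2ak4), eIF2alpha itself (Eif2s1), a phosphatase regulator that reverses the mark (Ppp1r15b), and 4 subunits of the exchange factor eIF2B (Eif2b1, Eif2b3, Eif2b4 and Eif2b5). They were chosen by name. Every non-control probe carrying one of these names on both arrays was taken, which gave 14 probes out of 39429. Of the 10 genes, 7 had a single probe, and all 10 had a probe well above background on both arrays, out of 15385 genes measured in this way. Liver RNA of 1 Drp1 knockout (KO) and 1 wild type male C57BL/6J mouse was hybridised to 1-colour Agilent mouse arrays, on 1 slide. Drp1, encoded by Dnm1l, is the dynamin-related GTPase that divides mitochondria, and the study's title places its disruption in the liver. The mice of both groups were on a high-fat diet made with lard, for 24 weeks. The labels give neither the deleted exons, nor what restricts the deletion to liver, nor whether the animals had fasted or been refed. With 1 array a group there are no replicates, and no difference between the groups could be tested.

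Translation of most mRNAs starts with eIF2 carrying the initiator tRNA to the ribosome in its GTP-bound form, and eIF2B reloads eIF2 with GTP after each round. When eIF2alpha is phosphorylated, eIF2 holds on to eIF2B and blocks it, so that general translation slows while a few mRNAs, among them that of the transcription factor Atf4, are translated more. The 4 kinases respond to different signals, and the resulting programme is called the integrated stress response. Arrays measure mRNA only. They give no reading of eIF2alpha phosphorylation or of kinase activity, which are set largely at the protein level.

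A level is a probe's signal divided by the 75th percentile of the signals on its array, and a difference is log2 KO minus wild type. A level can be compared between the arrays for 1 probe, but not between probes. Repeated spots of a probe gave a difference between the arrays an SD of 0.14 log2 units, or 1.1-fold. Probes of the same gene disagreed more, with a pooled SD of 0.36 over the 3357 genes that had several measured probes. Neither figure covers variation between mice. Genes are counted as higher or lower from 1.5-fold, a log2 difference of 0.58.

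Dnm1l, the targeted gene, read 1.75 in the KO and 2.03 in the wild type, 1.16-fold lower, and its probe does not check the label because the deleted part is not stated. Across all genes, 38.6% of those past 1.5-fold were higher, against 53.9% after median centring, 50.8% after loess normalization, 97.7% on the spike-in scale and 21.9% with no filter on dim probes. Markers of other cells differed between the livers. Skeletal muscle genes were on the wild type array, where 8 of 10 were well above background, while in the KO only Tnni2 was (summed level of that gene 0.158 in the KO and 2.86 in the wild type). Stellate cell markers were higher for 7 of 10 and lower for 1, with summed levels of 71.3 in the KO and 48.0 in the wild type, of which Dcn alone made 63.0 in the KO and 44.6 in the wild type. Macrophage markers were higher for 2 of 11 and lower for 0, and 8 of the 11 differences were positive and 3 negative. Their summed levels were 133.0 in the KO and 116.8 in the wild type. The brightest, Cd5l, made 41.5 in the KO and 34.8 in the wild type, and Marco 16.7 in the KO and 5.33 in the wild type. Such sums add probes that differ in brightness, so the brightest weigh most. Neutrophil markers were lower for 4 of 6, biliary markers higher for 2 of the 3 measured on both arrays, endothelial markers higher for 2 of 9, and of T, B and NK cell markers 1 of 6 was higher and 1 lower. Of markers well above background on 1 array only, the biliary marker Cftr was at least 2.21-fold lower in the KO and the T cell marker Cd3g at least 2.41-fold higher. Of the fat tissue markers, Adipoq, Plin1, Lep and Retn were not well above background on either array, while Cfd was 33.6-fold lower in the KO and Fabp4 differed by 0.01. Hepatocyte markers were bright on both arrays (summed levels 2313 in the KO and 3347 in the wild type), with 2 of 10 higher and 3 lower. Their median difference was -0.54, but -0.07 after loess normalization, -0.03 after quantile normalization and 0.23 on the spike-in scale. The part of these cells in the values below was not tested, and in whole liver fewer cells of a type and less RNA per cell cannot be told apart.

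Across the 10 genes the KO array differed little from the wild type array, with 2 exceptions. Eif2b3 was 1.65-fold and Eif2ak3 1.58-fold higher in the KO, and the other 8 genes lay within 1.5-fold. Thus 2 of 10 were at least 1.5-fold higher, while 8.42% of all measured genes were, and 0 of 10 were at least 1.5-fold lower, against 13.4% of all measured genes (21.8% in either direction). At a threshold of 2-fold, which 2.91% of all genes passed as higher and 3.64% as lower (6.55% in either direction), 0 of 10 passed in either direction. The median difference of the 10 genes was -0.01, beside -0.11 for all measured genes, and 5 of the 10 values were positive. Scaling to the spike-in RNA spots shifted every gene by 0.78, and on that scale all 10 values were positive. The plot of single-probe levels sets the arrays side by side.

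**Figure D1:**
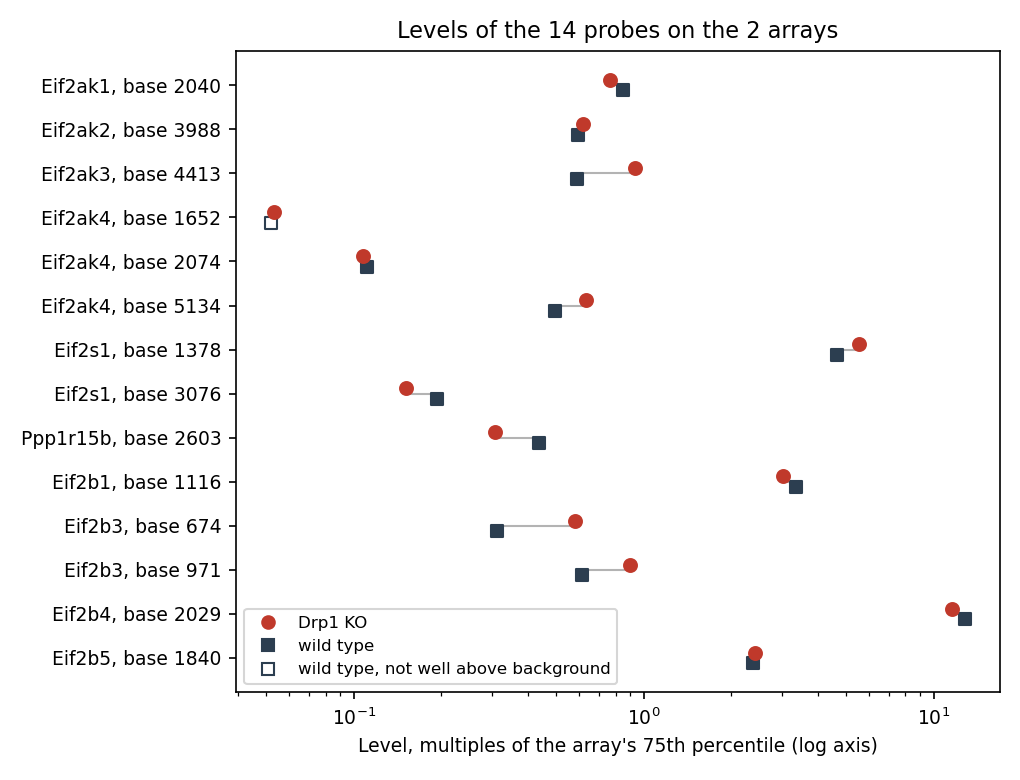
Levels of the 14 probes, 1 row each and named by gene and by the transcript base at which the probe starts, as multiples of the array's 75th percentile on a log axis. Circles are the KO array and squares the wild type array, and positions should be compared within a row only. The widest gap is that of the Eif2b3 probe at base 674, with 0.579 in the KO and 0.312 in the wild type, and the open square marks the 1 Eif2ak4 probe not well above background in the wild type.

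Among the kinases, Eif2ak3 had the greatest difference. It encodes PERK, a membrane protein of the endoplasmic reticulum (ER) that is activated by unfolded proteins in the ER lumen. Its probe read 0.933 on the KO array, against 0.590 on the wild type array, a log2 difference of 0.66. Of all measured genes, 6.95% had a greater difference. The probe lies at chr6:70855152-70855211 (mm9, plus strand), starting at base 4413 of the transcript. Only 1 probe carried this name, so no second probe checks the value. The difference was 0.54, below 1.5-fold, after normexp background correction, and from 0.66 to 0.77 under the other ways of processing except spike-in scaling.

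The promoter of Eif2ak3 is shown because this kinase stood apart from the other 3. RefSeq (GRCm38.p6) gives it at chr6:70844265-70844544 on the plus strand, printed from 250 bases before the start to 30 bases from it, with CCAAT boxes in capitals.
Eif2ak3 promoter: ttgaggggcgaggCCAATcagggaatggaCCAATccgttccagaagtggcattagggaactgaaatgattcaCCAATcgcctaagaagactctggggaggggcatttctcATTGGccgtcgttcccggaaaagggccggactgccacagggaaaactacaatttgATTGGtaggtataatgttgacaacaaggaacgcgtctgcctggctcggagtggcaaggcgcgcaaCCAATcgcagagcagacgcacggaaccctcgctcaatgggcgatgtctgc
It held 6 CCAAT boxes, searched as CCAAT on both strands. Motifs were searched over the full RefSeq windows, which are of equal length and run slightly past the printed stretch. At least 1 CCAAT box was present in 37.4% of 32851 promoters, and 6 or more in 26 of them (0.079%). Of the 8 genes described here with a RefSeq promoter, 4 had at least 1: Eif2ak1, Eif2ak3, Eif2b4 and Eif2b5. Of these 4, only Eif2ak3 was at least 1.5-fold higher in the KO. CCAAT is also part of the ER stress response element, which was searched on both strands as CCAAT and CCACG with 9 bases between them, and these letters were not found in the window of Eif2ak3 or of any other of the 8 genes with a RefSeq promoter (0.12% of all promoters). The C/EBP-ATF element, searched as TGATGNAA on both strands and known as the site that Atf4 binds with a partner, was present in 0 of these 8 genes, against 3.97% of all promoters. These matches are a description of the letters.

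The other sensors of ER stress are Ern1 (IRE1), which splices Xbp1 mRNA, and the membrane-bound factor Atf6. Ern1 differed by 0.07, at 0.774 in the KO and 0.739 in the wild type, and Atf6 by 0.07, at 0.630 in the KO and 0.602 in the wild type. Of 7 measured genes of these branches, 0 were 1.5-fold higher and 0 lower, with a median of 0.07. Hspa5, the ER chaperone BiP that binds PERK and holds it inactive, differed by -0.37, or 1.30-fold lower. Loess normalization, which removes a dependence on brightness, gave -0.04. Dnajc3, an ER co-chaperone known as an inhibitor of PERK and of PKR, differed by -0.22.

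Eif2ak4 encodes GCN2, the kinase that senses uncharged tRNA when amino acids run short. It had 3 probes along chromosome 2 (mm9, plus strand). Their last 30 bases are shown because they target different transcripts of the gene, with AATAAA, the letters of the polyadenylation signal, in capitals. These letters were in 12.6% of all 60-base probes and in 2 of the 14 probes described here, the other being that of Eif2b4. Whether they act as a signal was not tested.
Eif2ak4 probe at chr2:118253890-118253949: tccttggttggctcagaacaatgacatgaa
Eif2ak4 probe at chr2:118277964-118278023: ctaactttttagaaaagtAATAAAagaatg
Eif2ak4 probe at chr2:118300892-118300951: tttcatgtataaatttacctttttgatata
The first, designed to an Ensembl transcript, read 0.108 in the KO and 0.111 in the wild type, a difference of -0.04. The second, designed to another Ensembl transcript, read 0.0532 in the KO, where it was well above background, and 0.0518 in the wild type, where it was not. The third, on the RefSeq transcript, read 0.634 in the KO and 0.494 in the wild type, a difference of 0.36. The third probe was the only one of the 3 whose difference exceeded the spot error. Averaged over the 2 probes measured on both arrays, Eif2ak4 differed by 0.16 or 1.12-fold, and by 0.36 if the brightest probe stood for the gene. After normexp correction the mean was -0.02. The probes were 0.40 apart, more than the whole difference of the gene.

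Of the proteins that act on GCN2, Impact, which binds Gcn1 in competition with GCN2 and so inhibits the kinase, was 1.84-fold higher in the KO, with 1.79 against 0.973 in the wild type. Gcn1, the ribosome-associated activator of GCN2, read 2.48 in the KO and 2.78 in the wild type, a difference of -0.16 from 2 probes. Impact was the only one of 12 measured regulators of the kinases to reach 1.5-fold, and 0 were 1.5-fold lower. After median centring 2 reached it, Oma1 being the other, beside 11.2% of all measured genes. On the spike-in scale 7 of the 12 did, beside 58.05% of all measured genes. The median of these regulators was -0.16, beside -0.11 for all genes, and had the other sign after loess (0.08) and quantile normalization (0.06). It was also positive in the deposited value table (0.06) and on the spike-in scale (0.62).

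Eif2ak2 encodes PKR, the kinase activated by double-stranded RNA, and is known as an interferon-induced gene. Its probe (chr17:79252168-79252227, mm9, minus strand, base 3988 of the transcript) read 0.618 in the KO and 0.593 in the wild type. The difference of 0.06, or 1.04-fold, was smaller than the spot error. Many other interferon-stimulated genes were higher in the KO, but not all. Of 30 measured, 19 were at least 1.5-fold higher, 11 lay within 1.5-fold and 0 were lower, with a median of 0.90. Among all measured genes 8.42% were at least 1.5-fold higher and 13.4% lower. A greater difference than that of Eif2ak2 was found in 27, and a smaller one in 3. Ifi44 was 6.28-fold, Oas1a 5.94-fold (a member of a family of similar transcripts, so uncertain) and Ifit2 4.61-fold higher, and Oas3, well above background in the KO only, was at least 10.9-fold higher. Ifit2 was dim, at 0.335 in the KO and 0.0727 in the wild type. Its difference was 2.21 as reported and as low as 1.06 across the ways of processing. That of Ifi44 was 2.65 as reported and as low as 2.02. Adar, which edits double-stranded RNA and limits activation of PKR, differed by 0.12, and Prkra, the activator PACT, by -0.25.

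The Eif2ak2 promoter is shown for its interferon-stimulated response element (ISRE), the site bound by interferon-activated factors, searched on both strands as GAAA, any 2 bases and GAAA and in capitals here. RefSeq (GRCm38.p6) gives it at chr17:78882543-78882822 on the minus strand, from 250 bases before the start to 30 bases from it.
Eif2ak2 promoter: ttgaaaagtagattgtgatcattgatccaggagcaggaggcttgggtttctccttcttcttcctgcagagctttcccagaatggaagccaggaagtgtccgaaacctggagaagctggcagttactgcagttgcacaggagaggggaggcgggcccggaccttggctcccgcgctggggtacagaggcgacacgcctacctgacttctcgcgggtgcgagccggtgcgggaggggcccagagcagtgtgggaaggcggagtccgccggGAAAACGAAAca
The match GAAAACGAAA begins 18 bases after the RefSeq start. The motif was present in 3.44% of all promoters, in 11 of the 23 listed interferon-stimulated genes with a RefSeq promoter, and in 2 of the 8 genes described here, the other being Eif2s1 with GAAACAGAAA. A match describes letters only, and the reported difference of Eif2ak2 mRNA was no more than spot error. That difference was 0.17 after median centring, slightly above the spot error, and 0.84 on the spike-in scale, which shifted every gene. Under the other ways of processing it ran from 0.03 to 0.06.

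Eif2ak1 encodes HRI, a kinase restrained by heme and best known in red cell precursors, which in human cells also relays mitochondrial stress through the proteins OMA1 and DELE1. Its probe (chr5:144662840-144662899, mm9, plus strand, base 2040 of the transcript) read 0.766 in the KO and 0.847 in the wild type. The difference of -0.15, or 1.11-fold lower, was about the size of the spot error. Oma1, a mitochondrial protease, read 0.490 in the KO and 0.351 in the wild type, a difference of 0.48. Dele1 read 1.45 in the KO and 1.81 in the wild type, a difference of -0.32. Both lay within 1.5-fold. Red cell markers moved on these arrays too: of 7 listed genes on the array, the 3 measured on both were all lower in the KO (Slc4a1 12.9-fold, Alas2 1.96-fold, Hba-a1 1.73-fold), with a summed level of 67.3 in the KO and 119.9 in the wild type. Epb42 and Ahsp were not well above background on either array. Their part in the Eif2ak1 value was not tested.

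**Figure D2:**
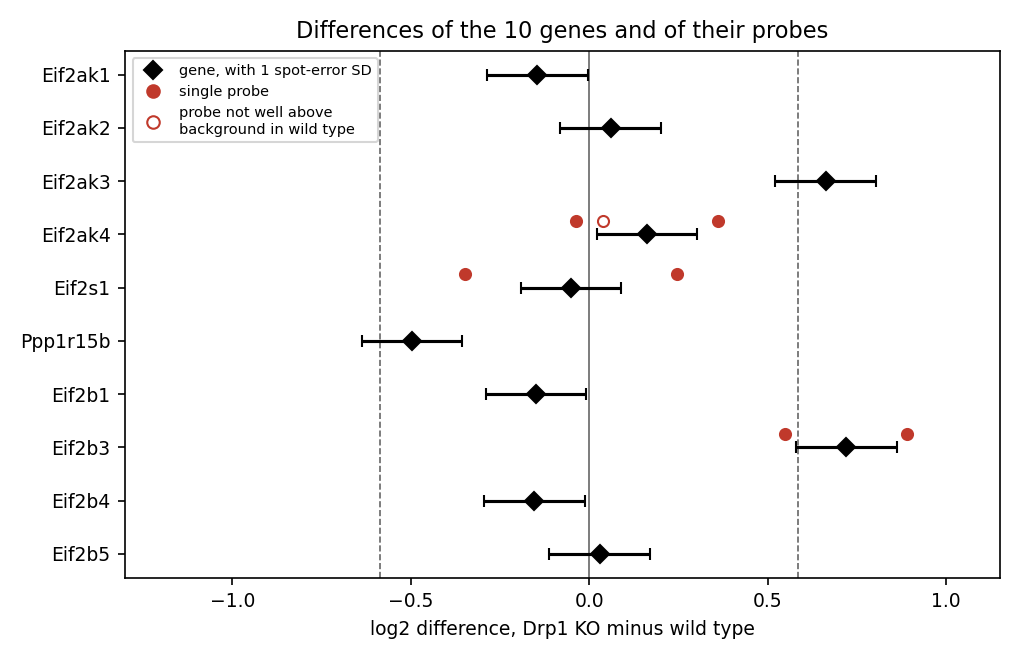
Log2 difference, KO minus wild type, of each of the 10 genes (diamonds, with bars of 1 SD of the spot error of a single-spot difference) and of the single probes of the 3 genes with several (circles, open where the wild type value was not well above background). Dashed lines mark 1.5-fold. Eif2ak3 (0.66) and Eif2b3 (0.72) lie past the line, Ppp1r15b (-0.50) is nearest to it on the other side, and the probes of Eif2s1 fall on either side of 0.

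Eif2s1, the substrate of all 4 kinases, had probes that gave opposite signs. Their last 30 bases are shown because both lie on the same transcript.
Eif2s1 probe at chr12:79986224-79986283: ctttctatataaaatgtattcaagcaaaca
Eif2s1 probe at chr12:79987922-79987981: tttcaaagcaagttccagcgctgttacaca
The probe at base 1378 read 5.52 in the KO and 4.66 in the wild type, a difference of 0.25. The probe at base 3076 read 0.152 in the KO and 0.194 in the wild type, a difference of -0.35. The probes were thus 0.59 apart, and the gene's mean of -0.05 carries no clear direction. With the brightest probe standing for the gene, or with a stricter filter on dim probes, the value was 0.25, that of the probe at base 1378. Among genes with several measured probes, 26.4% had probes at least 0.5 apart, and the median gap was 0.27. The other eIF2 subunits showed small differences as well. Eif2s2, eIF2beta, differed by -0.12, and the X-linked and Y-linked genes of eIF2gamma, Eif2s3x and Eif2s3y, by 0.06 and -0.03.

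Ppp1r15b encodes CReP, which brings protein phosphatase 1 to eIF2alpha in unstressed cells. It had the greatest negative difference of the 10 genes. Its probe (chr1:135033393-135033452, mm9, plus strand, base 2603 of the transcript) read 0.308 in the KO and 0.434 in the wild type, a difference of -0.50, or 1.41-fold lower. That is inside the 1.5-fold limit, and 17.6% of all measured genes had a lower value. Its stress-induced relative Ppp1r15a (GADD34), a target of Atf4 and Chop, went the other way, with 4.27 in the KO and 2.42 in the wild type, 1.76-fold higher. The catalytic subunits that both regulators recruit lay within 1.5-fold, with Ppp1ca at -0.33 (-0.04 after loess normalization), Ppp1cb at -0.13 and Ppp1cc at 0.13. Each regulator had a single probe, and Ppp1r15b took a positive value, 0.28, on the spike-in scale, where Ppp1r15a stood at 1.60.

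The eIF2B complex is built from alpha, beta, gamma, delta and epsilon subunits, encoded by Eif2b1 to Eif2b5. The epsilon subunit carries the exchange activity and works with gamma, while alpha, beta and delta form the core that senses phosphorylated eIF2. The gamma gene, Eif2b3, had 2 probes in neighbouring stretches of one transcript on chromosome 4 (mm9, plus strand). Both are shown in full because both read higher in the KO.
Eif2b3 probe at chr4:116731398-116731457: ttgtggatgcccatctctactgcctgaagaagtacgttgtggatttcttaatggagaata
Eif2b3 probe at chr4:116739087-116739146: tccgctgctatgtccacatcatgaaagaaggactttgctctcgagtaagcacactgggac
The probe at base 674 read 0.579 in the KO and 0.312 in the wild type, a difference of 0.89. The probe at base 971 read 0.900 in the KO and 0.615 in the wild type, a difference of 0.55. The probes had the same sign but were 0.34 apart, and the second alone falls short of 1.5-fold. Their mean of 0.72 was exceeded by 5.86% of all measured genes. It was 0.54 after normexp correction.

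The other eIF2B subunits showed no such difference. Eif2b5, the epsilon subunit, read 2.42 in the KO and 2.38 in the wild type (chr16:20507091-20507150), a difference of 0.03. Eif2b1, alpha, read 3.01 in the KO and 3.34 in the wild type (chr5:125020985-125021044), a difference of -0.15. Eif2b4, delta, read 11.5 in the KO and 12.8 in the wild type (chr5:31489943-31490002), also a difference of -0.15. Eif2b2, beta, which is not among the 10 genes, differed by -0.20. These 4 subunits thus spanned 0.23 log2 units, from -0.20 to 0.03, whereas all 5 spanned 0.92. Loess normalization gave 0.07 for Eif2b4, 0.01 for Eif2b2 and -0.04 for Eif2b1, so these small negative values turn sign or shrink with the normalization. Eif2b3 stayed at 0.71.

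**Figure D3:**
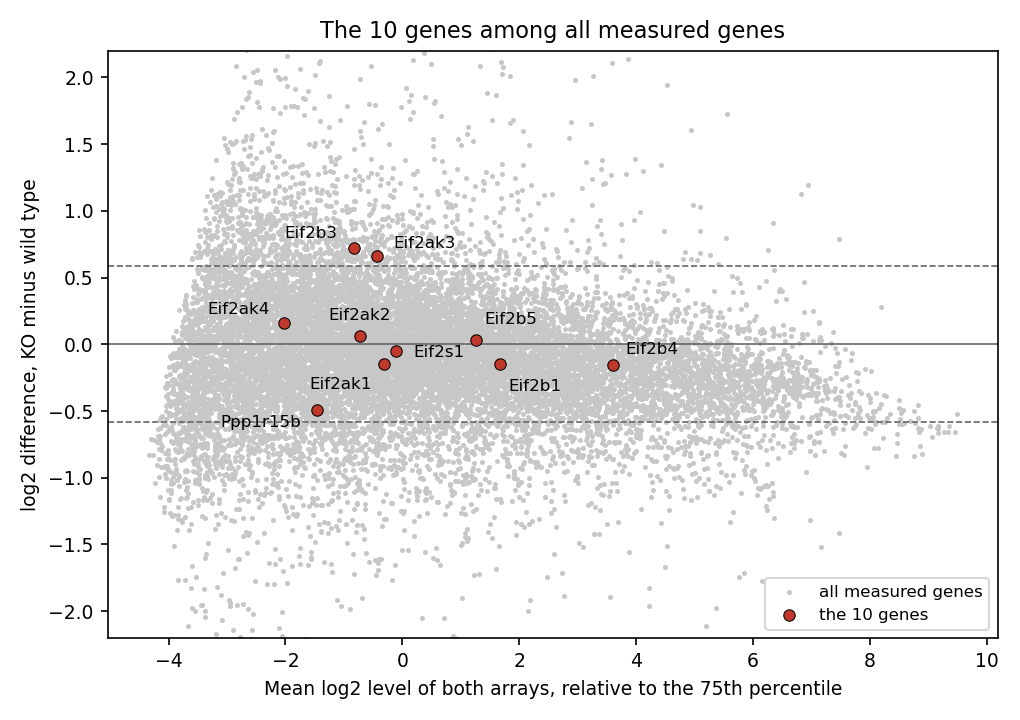
Log2 difference (KO minus wild type) of all 15385 measured genes against their mean log2 level on both arrays, with the 10 genes in red and dashed lines at 1.5-fold. 105 genes lie outside the vertical axis. Eif2b3 and Eif2ak3 stand above the upper line, where 5.86% and 6.95% of all measured genes had a greater difference, and the other 8 genes lie between the lines. The cloud of all genes bends below 0 among the brightest.

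The 10 genes were next set beside the rest of the initiation machinery. Of 8 remaining parts of eIF2, eIF2B and the phosphatase, 1 was 1.5-fold higher (Ppp1r15a) and 0 lower, with a median of -0.08. Of 12 measured factors of start codon selection, 1 was higher and 0 lower. This was Eif2a, a factor separate from eIF2alpha despite its name, at 0.676 in the KO and 0.393 in the wild type. Eif5b, well above background in the KO only, was at least 2.31-fold higher. Of the 13 subunits of eIF3, the scaffold that holds initiation factors on the ribosome, Eif3a was 1.83-fold higher and 0 were lower. The next list held cap binding factors with their relatives and regulators, not all of which bind the cap. Among its 13 measured genes, Eif4g2, a relative of eIF4G, was 1.52-fold higher. Eif4ebp2, a repressor of eIF4E, was 2.00-fold lower, at 5.63 in the KO against 11.3 in the wild type. Eif4e3, an eIF4E relative well above background in the KO only, was at least 3.42-fold higher. The medians of these lists ran from -0.08 to 0.16, beside -0.11 for all genes, and from 0.05 to 0.23 after loess normalization, beside 0.0045 for all genes.

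Transcripts listed as targets of the integrated stress response differed far more than the kinases did, and whether the kinases caused this was not tested. Of 21 measured targets, 15 were at least 1.5-fold higher and 2 lower, beside 8.42% and 13.4% of all measured genes. Their median was 0.82, and 13 had a greater difference than Eif2b3, the highest of the 10 genes. The 2 lower were Shmt2 (1.75-fold) and Vldlr (1.52-fold). Atf3 was 47.8-fold, Nupr1 37.0-fold, Trib3 16.2-fold and Asns 13.7-fold higher, and Psat1 was at least 22.0-fold higher. The wild type readings were low for Atf3 (0.175) and Asns (0.122), so the size of these folds depends on the processing. The reported difference of Atf3 was 5.58, and the lowest across the ways of processing was 4.74. For Asns these values were 3.78 and 2.80. Atf4 itself was 1.72-fold higher, with 11.9 in the KO and 6.93 in the wild type.

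**Figure D4:**
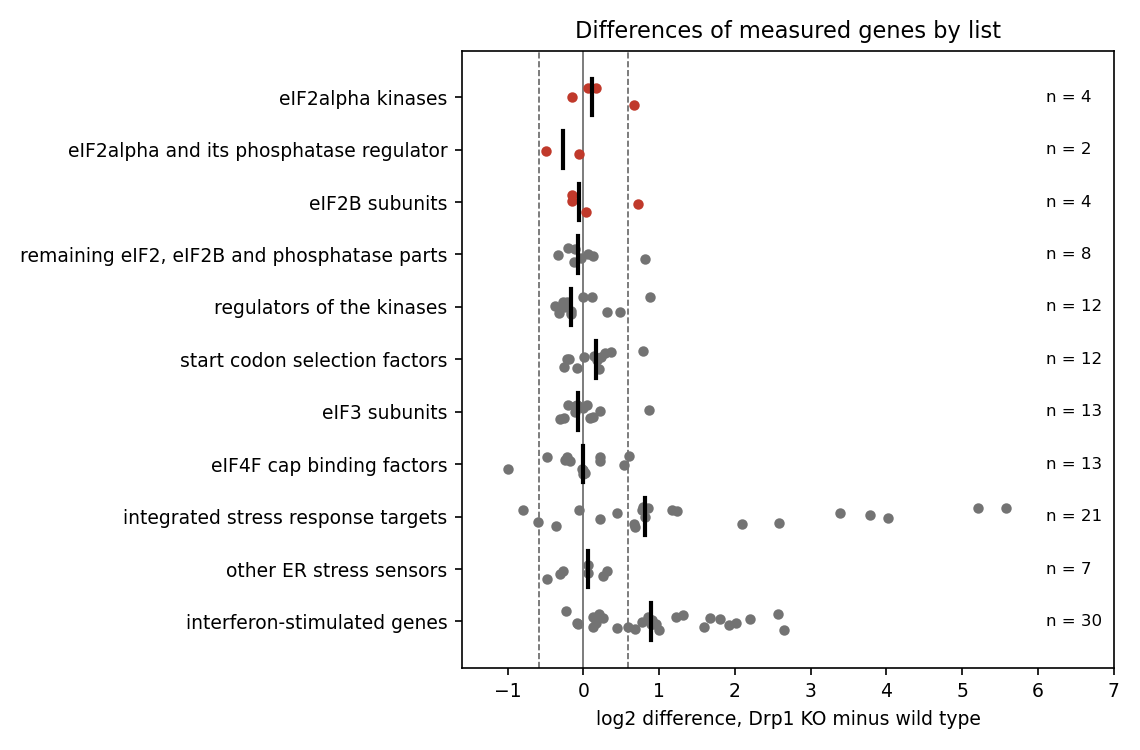
Log2 difference (KO minus wild type) of every measured gene in 11 lists, 1 point a gene, with the list median as a black bar, n at the right and dashed lines at 1.5-fold. The 3 groups of genes described here are red. Their points and those of the other initiation factors lie mostly between the dashed lines, while stress response targets (median 0.82) and interferon-stimulated genes (median 0.90) extend to the right.

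The values of the 10 genes were last compared over the ways of processing the arrays. Eif2ak3 and Eif2b3 were the 2 genes at least 1.5-fold higher under 7 of the 10 ways, counting the one used throughout. On the spike-in scale 9 of the 10 genes passed, but so did 58.05% of all measured genes. Normexp correction left Eif2ak3 and Eif2b3 at 0.54, just inside the limit, and 4.28% of all measured genes passed there.

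**Figure D5:**
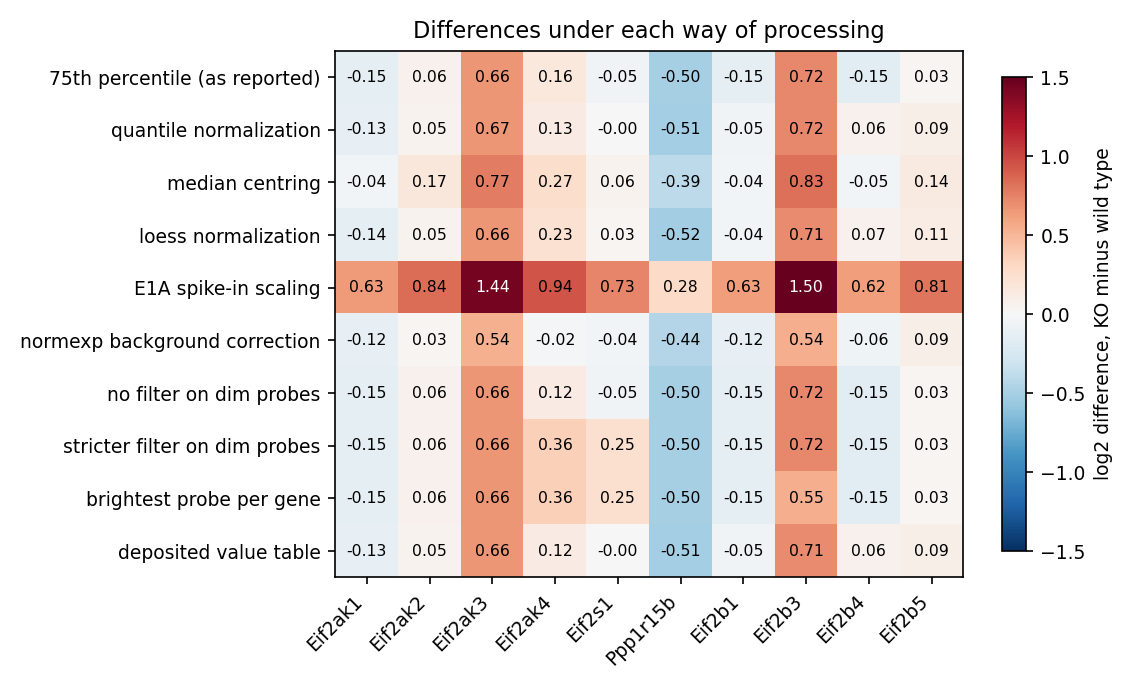
Log2 difference (KO minus wild type) of the 10 genes (columns) under the 75th percentile scaling used throughout and under the 9 alternatives (rows), with red for higher and blue for lower in the KO. Eif2ak3 runs from 0.54 to 1.44 and Eif2b3 from 0.54 to 1.5, both positive in every row, while Ppp1r15b is negative in all rows but that of spike-in scaling.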

How the data were processed

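The authors' deposited scanner files hold spot intensities from Agilent Feature Extraction, background-subtracted and spatially detrended within each array, per the file headers, with the version given as 9.5.1.1 by the submitters' processing notes and as 10.7.1.1 by the headers. The deposited value table holds linear intensities whose columns have equal medians (45.9) and Spearman correlations of 1.000 with the scanner values of their arrays, and whose sorted values are equal, as quantile normalization gives; its direction follows from the array each column belongs to. All its columns belong to the 2 samples.

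Control spots and outlier spots (190 in the KO and 183 in the wild type) were left out, and 0 spots were saturated. Processed signals were divided by the array's 75th percentile and log2-transformed, and copies of a probe were averaged. A probe counted as measured when at least 50% of its usable spots were well above background, which held for 57.1% of probes in the KO and 50.5% in the wild type. A gene is the mean of its probes measured on both arrays. Lower bounds ("at least") compare the bright value with the dim array's lowest well-measured signal, or with the dim reading itself where that was greater. The number of arrays limits the precision. Loess used a span of 0.3 and normexp an offset of 50 (limma 3.58.1), and other steps ran in Python 3.11.15. The code that counts genes past a fold was checked on simulated data with known folds, which is no test of the differences themselves. Genes outside the 10 were named through RefSeq (GRCm38.p6): 26761 probes by accession, 4453 by symbol or synonym, and 8215 under the file's name. RefSeq promoters were found for 8 of the 10 genes, Ppp1r15b and Eif2b3 being the others.

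Members and lists were chosen with earlier results of these data known. Genes named are the 10, Dnm1l, and in each list some of the 5 with the greatest difference or with a bound of at least 2-fold. Eif2s2, Eif2s3x, Eif2s3y, Gcn1, Adar, Prkra, Dnajc3, Ern1, Atf6, Atf4, Dcn and the markers below background were added with their values known.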

Additional observations from a re-analysis of the deposited data

How the results depend on the processing

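No paired analysis was possible because each group holds 1 array, and for the same reason no replicate could be left out. Of 90 values of the 10 genes under the 9 alternatives, 70 lay within 1 spot-error SD of the reported value, 20 moved further. Of the 90, 13 had another sign, and each sign change was in a gene whose reported value lay within 1.5-fold. The count of genes at least 1.5-fold higher was 2 as reported. It was 9 on the spike-in scale, where 58.05% of all measured genes passed. It was 1 with the brightest probe per gene (Eif2ak3), where 8.18% of all passed. It was 0 after normexp correction, where 4.28% passed, and 0 when counted from 2-fold, where 2.91% passed. Counting from 2-fold was a choice made after seeing the data. The count of genes lower was 0 throughout. The median of the 10 genes was 0.77 on the spike-in scale and from -0.03 to 0.10 under the other 8 alternatives. The median of all genes moved by 0.78 on the spike-in scale, by 0.11 under median centring and loess, and by -0.20 with no filter. The alternatives were applied to the other lists after seeing the data, and several list medians within 1.5-fold turned sign under at least 1 alternative, while among lists with a reported median past 1.5-fold only the fat tissue markers turned sign, at 0.0145 (reported -2.53) with the stricter filter, where 1 gene was left. Signal over background limits the Eif2ak4 probe that was not well above background in the wild type. The cause of the other changes was not tested.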

Other observations

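The symbol Eif2a is easily read as eIF2alpha, but it belongs to the separate initiation factor eIF2A. Its value (1.72-fold higher in the KO, from a single probe) should not be read as that of eIF2alpha, whose probes under Eif2s1 gave 0.25 and -0.35. Across settings the value of Eif2a ran from 0.57 to 1.56, and that of Impact from 0.85 to 1.66.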
